A study of Mus musculus with 6 samples.

Results

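Hbegf, Pdgfb and Vegfc, which encode secreted or membrane-shed growth factors, were described in cultured mouse macrophages together with the other PDGF and VEGF genes of the same RNA panel. The set was made of these 3 genes, which were chosen by their measured log2 difference between the groups below, and of every further row whose symbol begins with Vegf or Pdgf. It held 7 of the 753 gene rows: the ligand genes Hbegf, Pdgfa, Pdgfb, Vegfa and Vegfc and the receptor genes Pdgfra and Pdgfrb. Because the difference between the groups chose Hbegf, Pdgfb and Vegfc, that difference is given for them as a description without a test.

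The macrophages were grown from bone marrow flushed out of femur and tibia. One group came from factor H knockout mice (FHKO, n = 3 libraries), for which the labels give an age of 8 to 10 weeks, and the other from mice labelled WT (control, n = 3 libraries), for which the labels do not state an age of their own. No treatment was given to either group, and strain, sex, culture conditions and pooling of animals are not stated in the sources used here. Factor H is a soluble inhibitor of the alternative pathway of complement, and the study asks about its part in keeping macrophages in a resting state. Nothing in the labels says whether the 3 libraries of a group came from separate animals or cultures, so p-values measure only the spread between these libraries, which may be technical. Expression of the deleted gene was not used here as a check of the genotype labels.

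PDGF-A and PDGF-B chains form dimers that act mainly on mesenchymal cells such as fibroblasts, pericytes and smooth muscle through the receptor kinases encoded by Pdgfra and Pdgfrb. VEGF-A drives growth and permeability of blood vessels, and VEGF-C is best known for the growth of lymphatic vessels, and both belong with the PDGF chains to one superfamily of cystine-knot proteins. HB-EGF is of another family: it is made as a membrane precursor, is released by metalloproteinases and activates receptors of the EGF family. Macrophages are a known source of all these ligands in wounds and tumours.

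Promoter windows of RefSeq on GRCm38.p6 run from 250 bases before to 50 bases after a gene start. The windows examined belong to 4 of the 7 genes: Pdgfa, Pdgfra, Vegfa and Vegfc. The search did not cover every chromosome, so a missing window for Hbegf, Pdgfb or Pdgfrb does not mean that RefSeq has none. The windows of Vegfc and Vegfa are printed because these genes are the VEGF ligands of the panel and their values are set side by side below. Capitals mark GC boxes, searched as GGGCGG on both strands. The window of Vegfc lay at chr8:54077282-54077581 on the plus strand, and that of Vegfa, at the outermost of its starts, at chr17:46032328-46032627 on the minus strand.
Vegfc: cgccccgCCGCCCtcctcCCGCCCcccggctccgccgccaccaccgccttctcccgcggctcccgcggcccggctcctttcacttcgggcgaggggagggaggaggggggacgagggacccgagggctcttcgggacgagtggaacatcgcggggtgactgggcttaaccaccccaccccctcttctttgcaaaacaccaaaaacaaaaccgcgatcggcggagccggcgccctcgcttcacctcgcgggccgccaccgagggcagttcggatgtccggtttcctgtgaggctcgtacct
Vegfa: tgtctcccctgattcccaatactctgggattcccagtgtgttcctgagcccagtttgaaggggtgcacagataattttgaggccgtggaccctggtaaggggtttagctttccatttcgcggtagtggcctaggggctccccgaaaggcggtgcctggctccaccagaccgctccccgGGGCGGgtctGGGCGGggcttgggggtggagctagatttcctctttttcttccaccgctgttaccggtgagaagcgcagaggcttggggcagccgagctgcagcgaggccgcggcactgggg
Each of these windows held 2 GC boxes, a motif found in 35.7% of all 32851 promoter windows of this length. The Vegfc window was 70.3% G or C with 35 CpG dinucleotides, and the Vegfa window was 62.0% G or C with 16, where the median of all windows was 52.7% and 7. Neither window held the hypoxia response core ACGTG (in 19.6% of windows), the AP-1 motif TGANTCA (in 7.81%) or the TATA box TATAAA (in 13.6%), each searched on both strands. A second Vegfa window, at chr17:46025114-46025413 on the minus strand, held 1 hypoxia response core and 1 GC box. It belongs to a start downstream of the outermost one, and use of that start in these cells was not measured. No measurement of binding or chromatin was part of these data.

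RNA levels are given as the deposited normalised signal, a count scaled by a factor for each library. Recovered total counts were 717503 to 1348064 in the FHKO libraries and 725234 to 1083624 in the control libraries. The 490 genes that reached 20 in 3 or more of the 6 libraries were tested. A log2 difference is the FHKO mean less the control mean of log2(value + 1), so low genes appear to change less than they did. The median difference of the tested genes was 0.16, and 71.8% of them were above 0. The median log2 level of a library over these genes was 8.14, 8.33 and 8.18 in FHKO libraries 1 to 3, against 7.82, 7.88 and 8.07 in control libraries 1 to 3. After limma with Benjamini-Hochberg adjustment 1 gene of the 490 (0.204%) passed an adjusted p of 0.05, the interleukin-1 receptor antagonist gene Il1rn, which is no member of the set, and 110 genes (22.4%) had an unadjusted p under 0.05.

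The cultures carried macrophage RNA by their markers. Of the 8 macrophage markers 7 were on the panel, and their summed signal was 50544 to 52335 in FHKO libraries and 47627 to 51003 in control libraries, led by Cd68, Adgre1 and Csf1r. All markers on the panel of B cells (Ms4a1), T and NK cells (Nkg7), mast cells and basophils (4 genes) and endothelium (Cdh5 and Tek) stayed at or below the highest negative-control count of their library in every library. Of 6 stromal markers 4 did so too, among them Pdgfra and Pdgfrb, while Col3a1 and Fn1, the second of which macrophages also express, did not. Pf4, the platelet chemokine gene and the one platelet marker on the panel, had a signal of 402 to 584 in FHKO libraries and 426 to 464 in control libraries. Neutrophil markers (7 of 8 on the panel) summed to 178 to 211 in FHKO and 202 to 227 in control libraries, and dendritic cell markers (4 of 6) to 659 to 763 in FHKO and 704 to 989 in control libraries, mostly from Itgax. The part of these markers in the values below was not tested. In RNA of whole cultures, fewer cells of a type and less RNA per cell cannot be told apart.

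**Figure D1:**
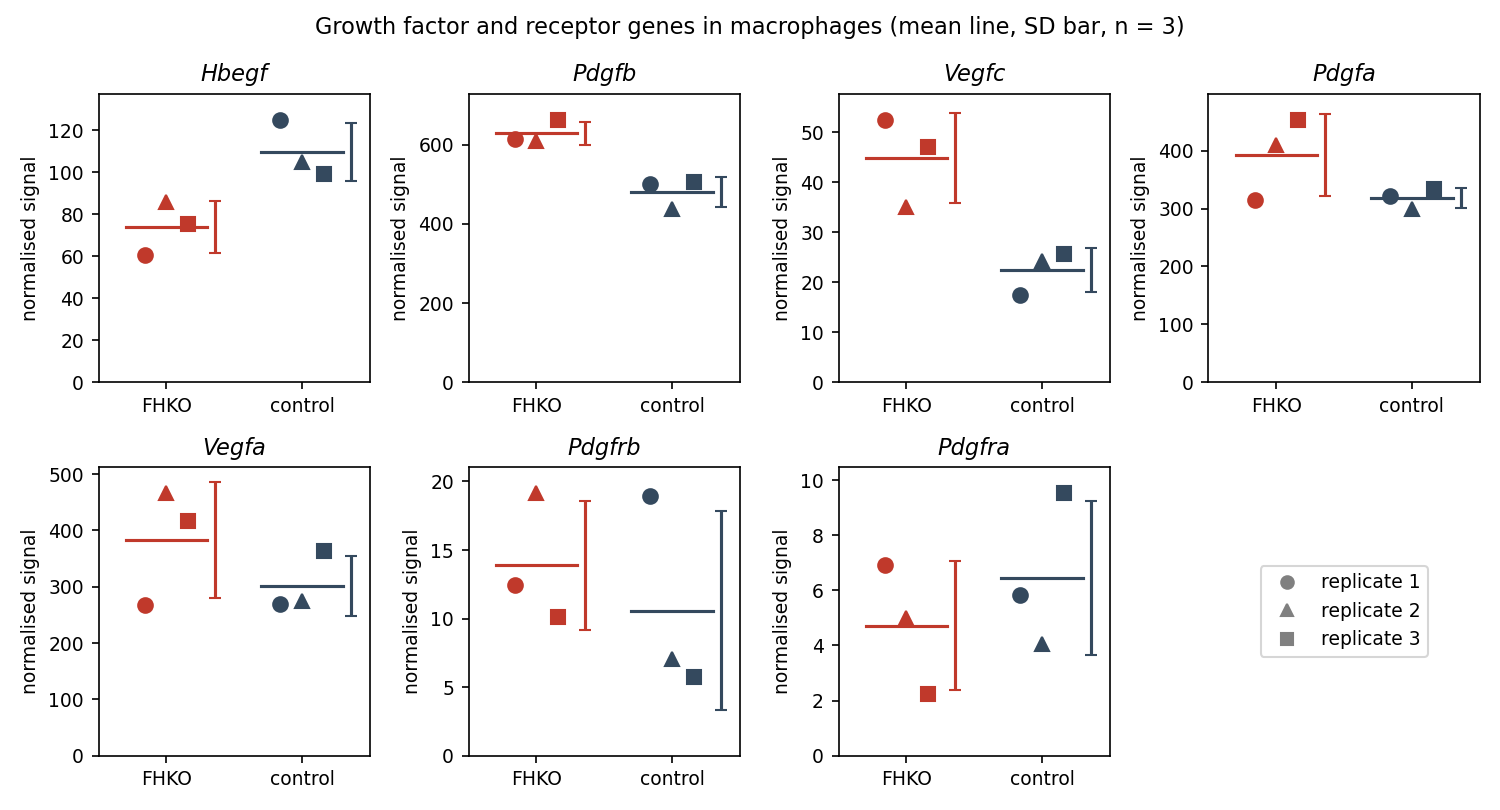
Normalised signal (vertical axes, each from 0) of the 7 genes in each library, with FHKO left and control right. Symbols mark the replicate number, horizontal lines the mean and bars the SD (n = 3). The groups are apart for Hbegf, Pdgfb and Vegfc and overlap for the other 4 genes.

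Of the 5 tested members 3 did not overlap between the groups, Hbegf below the controls (as did 6.33% of all tested genes) and Pdgfb and Vegfc above them (as did 22.9%). Since this difference chose them, nothing is read from that count.

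Hbegf, the EGF-family ligand, was lower in the knockout macrophages. Its signal was 60.8, 85.7 and 75.2 in FHKO libraries 1 to 3, against 125, 105 and 99.0 in control libraries 1 to 3. The highest FHKO library, replicate 2, lay below the lowest control library, replicate 3, by 0.21 on the log2 scale, and FHKO replicate 1 and control replicate 1 stood farthest apart. The means were 73.9 ± 12.5 in FHKO and 110 ± 13.6 in control macrophages (SD, n = 3 each), so that control was 1.48 times FHKO. The log2 difference was -0.57 with a standard error of 0.17, and relative to the panel's median it was -0.73.

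In counts before scaling Hbegf had 44, 103 and 67 in the FHKO libraries and 86, 104 and 104 in the control libraries. FHKO replicate 2 therefore had nearly the count of 2 controls, but at a larger total. Its total was 1348064 counts, against 996065 and 1083624 in control replicates 2 and 3. That library stood apart only after scaling, with a step of 0.832 per count against 1.01 and 0.952 in those controls. The 95% Poisson interval of its scaled value, 70.0 to 104, overlapped those of control replicate 2 (85.9 to 127) and control replicate 3 (80.9 to 120). Such intervals cover counting error only. All 6 counts were above every negative control of their library, at 4.19 to 12.4 times the mean of those controls. Counting alone would give a coefficient of variation of 12.6% in FHKO and 10.1% in control libraries, and the observed ones were 16.9% and 12.4%.

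The difference of Hbegf was larger with equal library medians or quantile normalisation. Equal medians lower the difference of every tested gene by 0.29. With equal library totals, an alternative chosen after seeing the data, the difference of Hbegf was -0.60, near that of the deposited scaling. With library medians set equal, its log2 level relative to the library's median was -2.19, -1.90 and -1.93 in FHKO libraries 1 to 3, against -0.84, -1.15 and -1.43 in control libraries 1 to 3. The groups stayed apart, and the log2 difference was -0.86. Quantile normalisation gave -0.88.

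Pdgfb, which encodes the PDGF-B chain, was higher in the knockout macrophages under the deposited scaling. Its signal was 615, 611 and 664 in FHKO libraries 1 to 3, against 502, 438 and 505 in control libraries 1 to 3. The FHKO libraries lay close together and all above the controls, with a gap of 0.27 on the log2 scale between the nearest libraries, FHKO replicate 2 and control replicate 3. The means were 630 ± 29.3 in FHKO and 482 ± 38.2 in control macrophages (SD, n = 3 each), a ratio of 1.31. The log2 difference was 0.39 with a standard error of 0.10. Counts of 445 to 734 in FHKO and 345 to 531 in control libraries stood at least 32.5 times above the mean negative control, so background had little weight here.

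The difference of Pdgfb was smaller when set against the rest of the panel. Relative to the panel's median it was 0.23, and with library medians set equal it was 0.09 with a standard error of 0.14. Relative to the library's median, the log2 level of Pdgfb was 1.12, 0.92 and 1.20 in FHKO libraries and 1.16, 0.89 and 0.91 in control libraries. On that scale control replicate 1 lay above FHKO replicates 1 and 2, and the groups overlapped. Quantile normalisation gave a difference of 0.21, and equal library totals gave 0.36.

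Pdgfa, the gene of the other classical PDGF chain, did not separate the groups. Its signal was 315, 410 and 454 in FHKO libraries 1 to 3, against 321, 299 and 334 in control libraries 1 to 3. FHKO replicate 1 lay among the controls, and the other FHKO libraries were above them. The means were 393 ± 70.7 in FHKO and 318 ± 17.7 in control macrophages (SD, n = 3 each). The log2 difference was 0.29 (SE 0.15) and did not pass (limma, adjusted p = 0.289). The difference was 0.18 without FHKO replicate 3, 0.44 without FHKO replicate 1, and -0.01 with library medians set equal.

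The receptor genes of these chains were at background. Pdgfra, the receptor for both chains, had 5, 6 and 2 counts in FHKO libraries and 4, 4 and 10 counts in control libraries, all below the mean negative control of their library. Pdgfrb, the main receptor of PDGF-B, had 9, 23 and 9 counts in FHKO libraries and 13, 7 and 6 counts in control libraries. None of these counts exceeded the highest negative control of its library, which was 21, 26 and 23 in FHKO and 16, 14 and 26 in control libraries. Both genes missed the filter for testing. At this depth their RNA could not be told from background in either group.

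Vegfc was higher in the knockout macrophages, at counts close to background in control replicates 1 and 3. Its signal was 52.5, 35.0 and 47.2 in FHKO libraries 1 to 3, against 17.5, 24.3 and 25.7 in control libraries 1 to 3. The lowest FHKO library, replicate 2, lay above the highest control library, replicate 3, by 0.43 on the log2 scale. The means were 44.9 ± 9.0 in FHKO and 22.5 ± 4.405 in control macrophages (SD, n = 3 each), a ratio of 1.998. The log2 difference was 0.97 with a standard error of 0.23, or 0.81 relative to the panel's median.

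The counts behind these values were 38, 42 and 42 in FHKO libraries and 12, 24 and 27 in control libraries. The FHKO counts were all above the highest negative control of their library. In control replicate 1 the count of 12 was below the highest negative control, 16, and near their mean of 10.6, and in control replicate 3 the count of 27 was 1 above the highest, 26. Control replicate 2, with a count of 24, was above its highest negative control, 14. That count was 2.87 times the mean negative control, against 2.85 times in FHKO replicate 2. The size of the difference therefore depended on how background was treated. Subtracting the mean negative control of each library, an alternative chosen after seeing the data, gave 1.84 on the log2 scale (SE 0.67), and a pseudocount of 20 gave 0.61. The subtraction left 1.375 counts in control replicate 1, against 15.6 and 13.5 in control replicates 2 and 3. In FHKO libraries 1 to 3 it left 27.5, 27.25 and 30.1 counts. The part of control replicate 1 in the value of 1.84 was not tested.

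Counting noise was also of the size of the spread for Vegfc. The 95% Poisson interval of the scaled value was 25.2 to 47.3 in FHKO replicate 2, which overlapped the interval of 16.9 to 37.4 in control replicate 3 and that of 15.5 to 36.1 in control replicate 2. With library medians set equal the log2 level relative to the library's median was -2.40, -3.17 and -2.59 in FHKO libraries and -3.61, -3.22 and -3.33 in control libraries. FHKO replicate 2 was then just above control replicate 2, and the difference was 0.67.

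**Figure D2:**
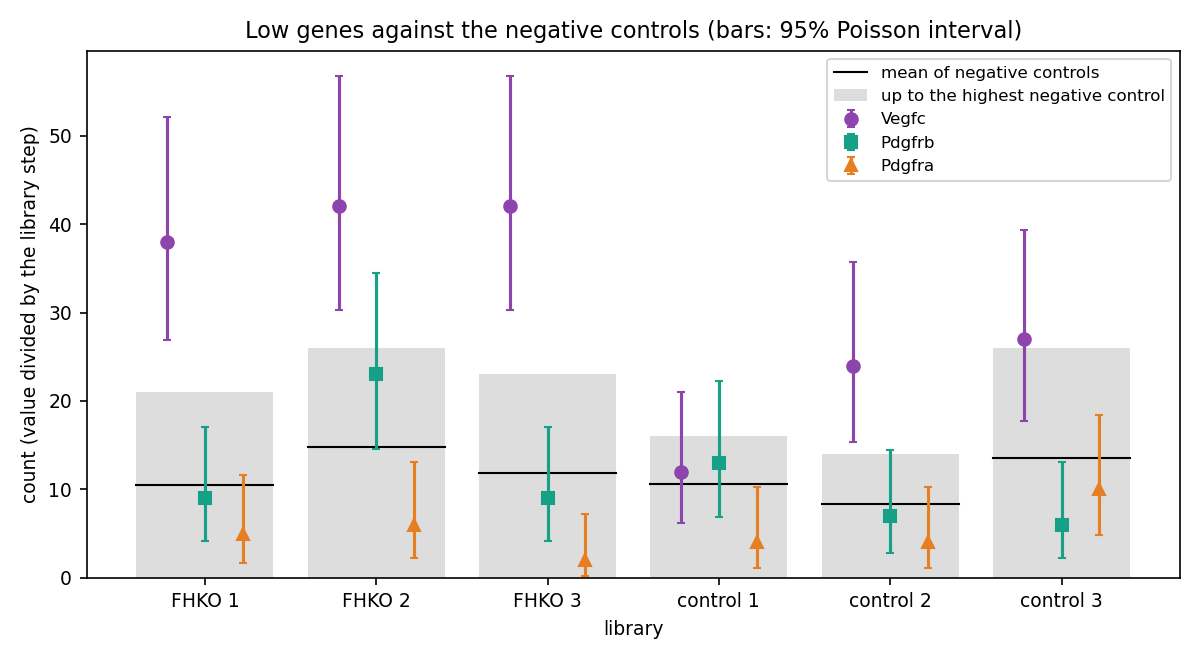
Counts (vertical axis, value divided by the library's step) of Vegfc, Pdgfrb and Pdgfra in the 6 libraries, FHKO left. Grey bars reach the highest negative-control count of the library, black lines mark the mean of the 8 negative controls, and error bars are 95% Poisson intervals. Vegfc is above the grey bar in 5 of 6 libraries and inside it in control 1, and both receptor genes are inside it in all 6.

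Vegfa, the blood vessel growth factor gene, overlapped between the groups, and its SD within a group, 0.34 on the log2 scale, was as large as its difference. Its signal was 268, 466 and 417 in FHKO libraries 1 to 3, against 269, 274 and 364 in control libraries 1 to 3. FHKO replicate 1 was level with the lowest control, and FHKO replicate 2 was the highest library. The means were 384 ± 103 in FHKO and 302 ± 53.3 in control macrophages (SD, n = 3 each). The log2 difference was 0.32, with an SE of 0.23 (limma, adjusted p = 0.407). Counting alone would give a coefficient of variation of 5.67% in FHKO and 6.25% in control libraries, and the observed ones were 26.9% in FHKO and 17.6% in control libraries.

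The difference of Vegfa moved with single libraries and with the scaling. It was 0.56 without FHKO replicate 1 and 0.16 without FHKO replicate 2, and it was 0.02 with library medians set equal. The library's median level, given above, was also highest in FHKO replicate 2 among the FHKO libraries and in control replicate 3 among the controls, as Vegfa was.

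**Figure D3:**
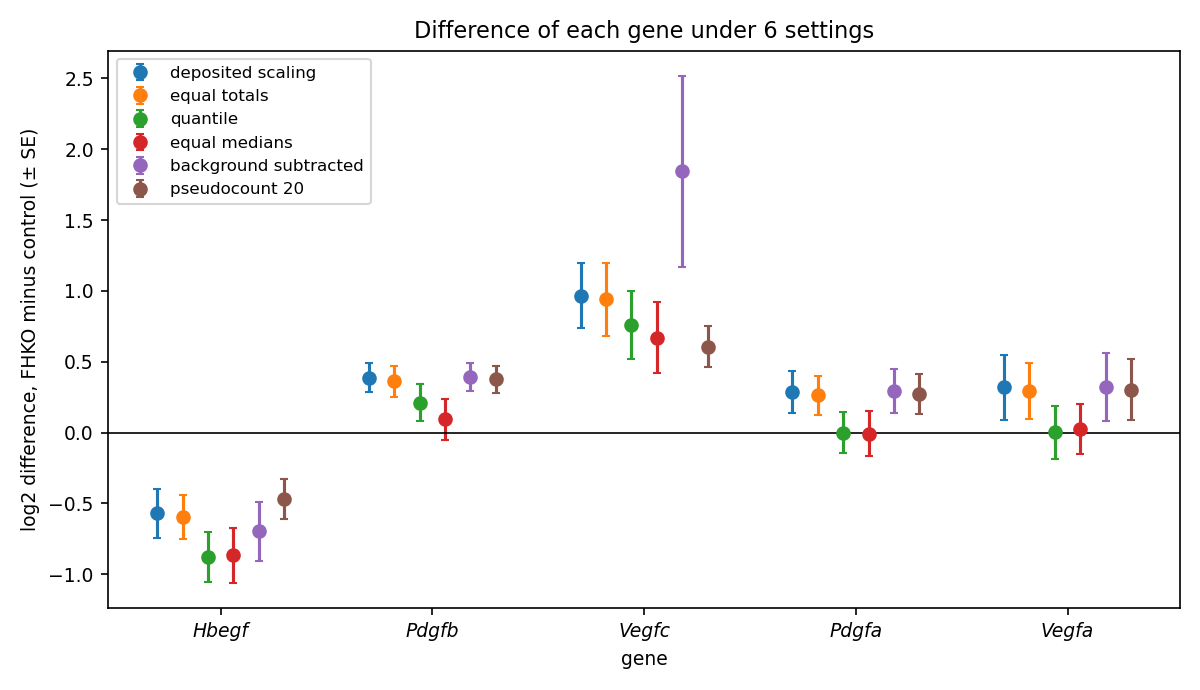
Log2 difference, FHKO minus control (vertical axis, points with standard errors), of the 5 tested genes under 6 settings. Hbegf is below 0 and Vegfc above 0 under each, Pdgfb is at 0.09 with equal medians, and Pdgfa and Vegfa come to about 0 with equal medians or quantiles.

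Ratios of 2 genes within a library do not depend on the library's scaling. The log2 ratio of Hbegf to Pdgfb was -3.34, -2.83 and -3.14 in FHKO libraries and -2.004, -2.06 and -2.35 in control libraries. The groups were apart, and the mean ratio was 1.95 times lower in FHKO. The log2 ratio of Hbegf to Tgfa, a further EGF-family ligand gene, was 0.03, 0.38 and 0.57 in FHKO libraries and 1.18, 0.84 and 0.89 in control libraries. It too was apart, by a factor of 1.56. These ratios hold Hbegf, which was chosen for its difference, and are descriptions.

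Within the PDGF and VEGF pairs the groups overlapped. The log2 ratio of Pdgfb to Pdgfa was 0.96, 0.58 and 0.55 in FHKO libraries and 0.64, 0.55 and 0.60 in control libraries, so that FHKO replicate 1 alone stood out. The log2 ratio of Vegfc to Vegfa was -2.35, -3.74 and -3.14 in FHKO libraries and -3.95, -3.50 and -3.82 in control libraries, and FHKO replicate 2 lay among the controls. The log2 ratio of Vegfc to Pdgfb was -3.55, -4.13 and -3.81 in FHKO libraries and -4.85, -4.17 and -4.30 in control libraries. There the groups were apart, with FHKO replicate 2 just above control replicate 2. Vegfc and Pdgfb were both chosen for their difference, so this ratio too is a description.

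**Figure D4:**
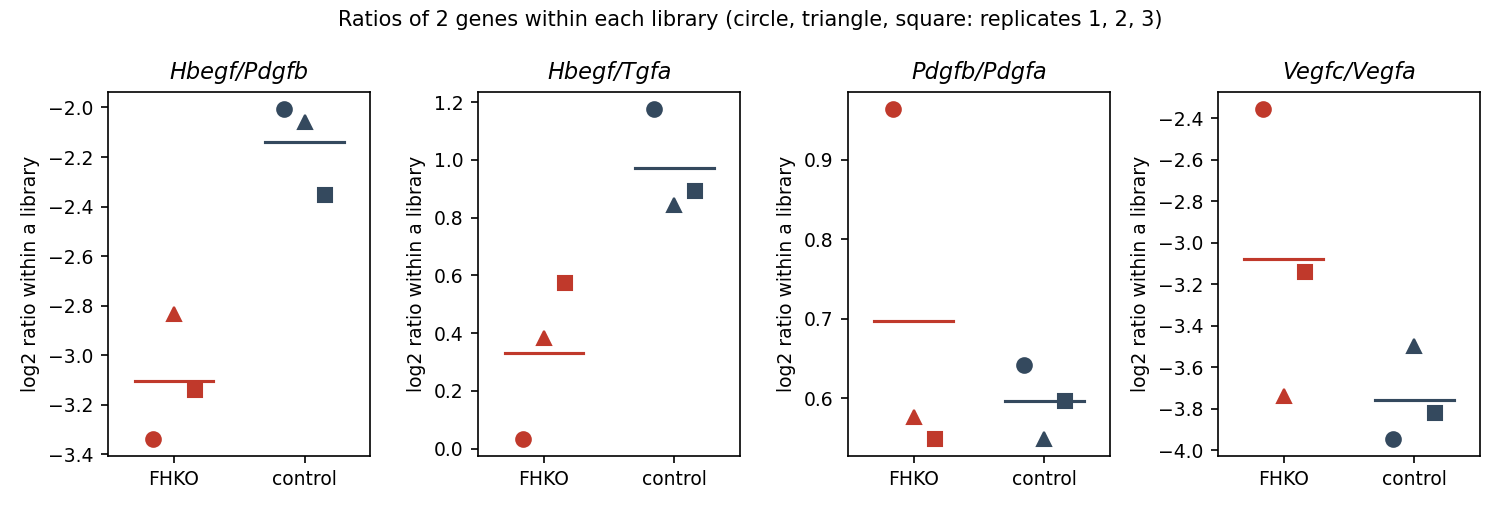
Log2 ratio of the signals of 2 genes within each library (vertical axes, not from 0), FHKO left and control right, with lines at the mean. The groups are apart for Hbegf over Pdgfb and Hbegf over Tgfa and overlap for Pdgfb over Pdgfa and Vegfc over Vegfa.

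Of the other EGF-family ligands on the panel, Tgfa was tested. Tgfa, a ligand of the EGF receptor, had a signal of 59.4, 65.8 and 50.5 in FHKO libraries and 55.3, 58.6 and 53.3 in control libraries, a log2 difference of 0.06 (limma, adjusted p = 0.818). The groups overlapped, and the difference ranged from -0.02 to 0.16 when 1 library was left out. Areg, the amphiregulin gene, missed the filter, with 12.4 to 27.5 in FHKO and 9.09 to 16.2 in control libraries, and so did Egf, with 4.49 to 9.67 in FHKO and 7.62 to 10.2 in control libraries. None of the 4 EGF-family receptor genes looked for was among the gene rows analysed here. Among VEGF receptors Flt1, a receptor of VEGF-A, was tested, with 27.6, 28.3 and 39.3 in FHKO libraries and 40.7, 23.2 and 41.9 in control libraries (log2 difference -0.12, limma, adjusted p = 0.804), a difference that ranged from -0.39 without control replicate 2 to 0.02 without control replicate 3.

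The further genes that release, process or act beside these ligands, or signal downstream of their receptors, showed no member past the threshold. Of 31 such genes on the panel 23 were tested, and 0 passed limma's adjusted threshold. At an unadjusted p under 0.05, 4 were higher and 1 lower, where the panel had 19.0% higher and 3.47% lower. Of the 23 genes 16 were above 0 and 12 above the panel's median difference, and 5 (against 29.2% of the panel) did not overlap between the groups. Their median log2 difference was 0.16, the same to 2 decimals as that of all tested genes. These lists were drawn up with earlier results of these data known.

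Proteases and processing enzymes showed differences that did not pass. Adam8, a metalloproteinase of the family that sheds membrane proteins, and Mmp9, a gelatinase, had log2 differences of 0.17 and -0.37 (limma, adjusted p = 0.310 and 0.311). Mmp9 was at 120, 178 and 159 in FHKO libraries and 252, 167 and 175 in control libraries, and FHKO replicate 2 lay above 2 of the controls. Its difference was -0.21 without FHKO replicate 1 and -0.18 without control replicate 1. Furin, the proprotein convertase that cleaves PDGF and VEGF-C precursors, had 0.23 (limma, adjusted p = 0.308), and Plau, the urokinase gene, had -0.03 (limma, adjusted p = 0.909). Without FHKO replicate 3 Adam8 had 0.10 and Furin 0.15, and both turned, to -0.12 and -0.06, with library medians set equal. Plau ranged from -0.12 to 0.08 when 1 library was left out.

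Other growth factors and their receptors were spread around the panel's median. Igf1, the insulin-like growth factor gene, was at 991, 1467 and 1273 in FHKO libraries and 922, 918 and 1035 in control libraries, a log2 difference of 0.36 (limma, adjusted p = 0.213). FHKO replicate 1 lay below the highest control, and the difference was 0.23 without FHKO replicate 2. Hgf, the hepatocyte growth factor gene, was at 117, 247 and 99.9 in FHKO libraries and 85.8, 92.0 and 116 in control libraries, and its difference of 0.55 (limma, adjusted p = 0.327) was 0.16 without FHKO replicate 2. Met, the receptor of that factor, Mertk, a receptor kinase for uptake of dying cells, and Angpt2, an angiopoietin gene, had -0.11, 0.28 and 0.07 (limma, adjusted p of 0.899, 0.416 and 0.868). Met was near background, at 16.8 to 20.8 in FHKO and 10.2 to 37.1 in control libraries. It had -0.58 without control replicate 1, -0.12 without FHKO replicate 1 and -0.03 without FHKO replicate 3. Without any other library it missed the filter. Mertk had 0.11 without FHKO replicate 2 and 0.13 without control replicate 1. Angpt2 ranged from -0.09 to 0.33 when 1 library was left out.

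Hif1a, the oxygen-regulated transcription factor for which Vegfa is a known target, differed by 0.75 on the log2 scale, with an SE of 0.32 (limma, adjusted p = 0.217). Without control replicate 1 the difference was 0.45. Its signal was at 655, 1101 and 698 in FHKO libraries and 310, 479 and 705 in control libraries. Control replicate 3 was above FHKO replicates 1 and 3, so the groups overlapped, and as for Vegfa the highest library of each group was FHKO replicate 2 and control replicate 3. The ratio of Vegfa to Hif1a overlapped between the groups. Nos2, the inducible nitric oxide synthase gene, was near background at 13.8 to 21.6 in FHKO and 11.4 to 27.6 in control libraries (log2 difference 0.16, limma, adjusted p = 0.797). Its difference ranged from -0.09 to 0.36 without FHKO replicate 1, control replicate 2 or control replicate 3. It missed the filter when any other library was left out.

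Of 9 tested genes of the ERK pathway and the early response to growth factors, 7 were above 0 and 2 below. In the panel 71.8% of tested genes were above 0. Of these 9, 5 did not overlap between the groups, against 29.2% of the panel. Those 5 were also the ones of smallest p and are named next. Egr2, Fosb, Jun and Dusp6 overlapped, with log2 differences of -0.04, 0.36, 0.10 and 0.10. Dusp1, a phosphatase that acts on MAP kinases, was at 940, 905 and 1082 in FHKO libraries and 753, 761 and 773 in control libraries. All FHKO libraries were above the controls (log2 difference 0.35, limma, adjusted p = 0.141). Ets1, a transcription factor gene, was at 210, 191 and 174 in FHKO libraries and 122, 150 and 152 in control libraries (0.44, adjusted p = 0.148 in limma), also without overlap. Atf3, a stress-induced transcription factor gene, was at 3903, 4372 and 3903 in FHKO libraries and 5287, 4509 and 4984 in control libraries (-0.28, adjusted p = 0.148 in limma), with all FHKO libraries below the controls. With library medians set equal Dusp1 had 0.06 and Ets1 0.15, and Atf3 had -0.57 and passed (limma, adjusted p = 0.0355). Myc and Ier3, an early response gene, had 0.24 and 0.28 (limma, adjusted p of 0.218 and 0.220) and turned to -0.05 and -0.02 with library medians set equal.

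**Figure D5:**
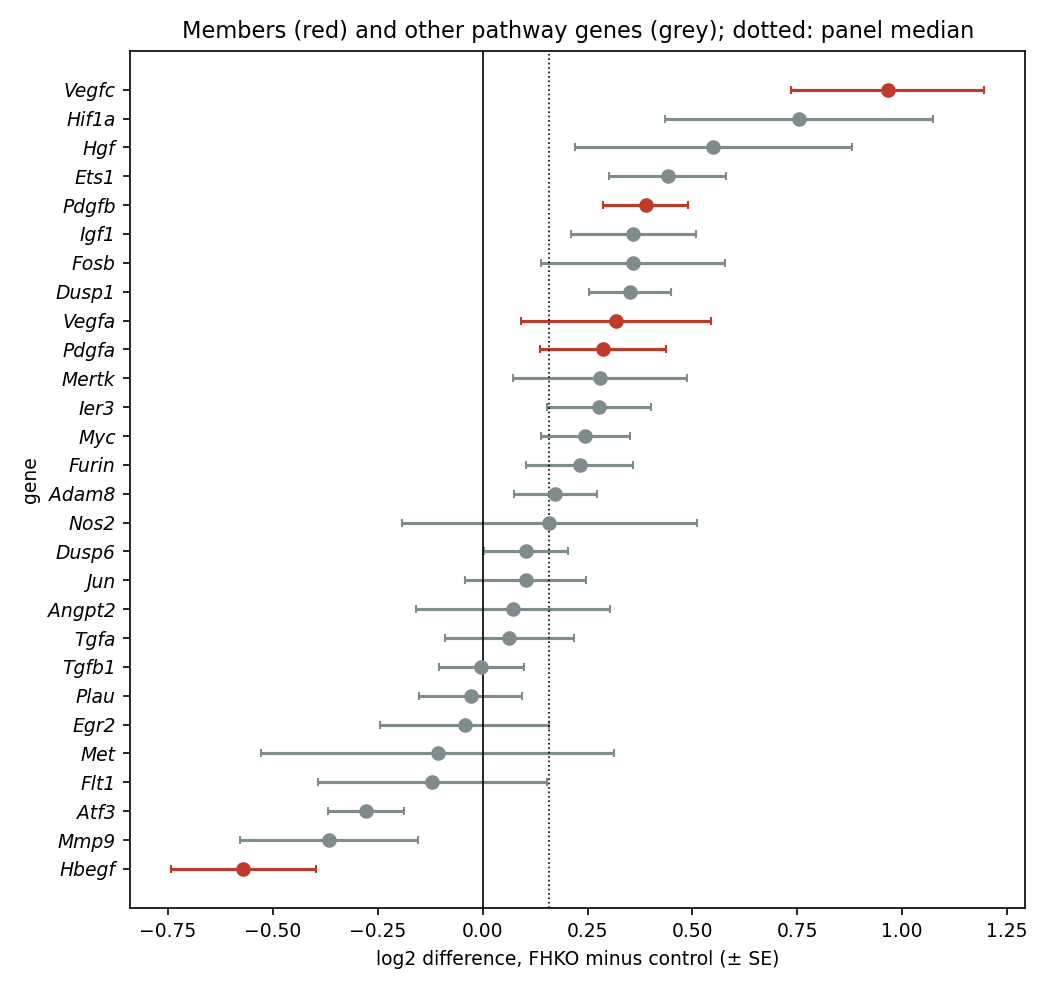
Log2 difference, FHKO minus control (horizontal axis, points with standard errors), of the 5 tested members (red) and 23 other pathway genes (grey), ordered by the difference. The solid line is at 0 and the dotted line at the panel's median of 0.16, and Hbegf and Vegfc are at the ends with -0.57 and 0.97.

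Likeness of profiles was measured as the root mean square distance between log2 levels over the 6 libraries, each gene centred on its own mean, so a small value means a like pattern and size. It is a description of 6 libraries that share their scaling. The genes closest to Hbegf were S100a11, a calcium-binding protein gene (distance 0.14), Mmp9 (0.15), Mmp19, a further matrix metalloproteinase gene (0.17), and Cd44, the hyaluronan receptor gene (0.18), where the median distance of a tested gene from Hbegf was 0.42. All 4 had differences below 0, from -0.51 to -0.36, which follows from choosing them by closeness to Hbegf. Closest to Pdgfb were S1pr1, a sphingosine phosphate receptor gene (0.06), 2900026A02Rik (0.08), Dusp1 (0.08) and Map3k4, a MAP kinase cascade gene (0.08), against a median of 0.25. Closest to Vegfc were Id3, an inhibitor of helix-loop-helix transcription factors (0.17), the non-coding RNA Kcnq1ot1 (0.17), Cx3cr1, the fractalkine receptor gene (0.21), and Havcr2, which encodes the receptor TIM-3 (0.22), against a median of 0.52.

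The members were not each other's closest genes. By distance from Pdgfb, Pdgfa ranked 49 and Vegfa 283 among the other 489 tested genes, and Vegfc ranked 420. Ranks differ by direction, since the distance includes the size of the pattern. By distance from Vegfc, Pdgfb ranked 43 at the same distance of 0.39, where the median distance from Vegfc was 0.52. By distance from Vegfa, Pdgfa ranked 22 (distance 0.17) and Vegfc 474 (0.53). The pair of Pdgfa and Vegfa thus lay closer in pattern than the pair of VEGF genes, and the log2 ratio of Pdgfa to Vegfa was 0.06 ± 0.22 in FHKO and 0.09 ± 0.19 in control macrophages (SD, n = 3 each).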

How the data were processed

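RNA of 6 libraries was analysed, 3 FHKO and 3 control, grouped by the sample titles. The table deposited by the authors holds a normalised signal for 753 genes, with 8 negative and 6 positive control rows; the platform, software and normalisation are not given in the sources used here. By the values, each library's gene values were whole multiples of 1 step (100% of values below 400 steps, within 0.1 step), so a value divided by its step was read as the count, and control rows were unscaled. Values were fitted as log2(value + 1) with limma 3.58.1 in R 4.3.3 (lmFit, eBayes with trend, two-sided, Benjamini-Hochberg over all tested genes, threshold 0.05), without a block, and tested on simulated data. Figures used matplotlib 3.10.9, and Poisson intervals SciPy 1.17.1.

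The members and lists were chosen with earlier results of these data known. Named genes were all members, measured EGF-family and PDGF and VEGF receptor genes, up to 5 tested genes of smallest p of each other list, and the 4 genes of closest profile. Alternatives were a replicate block, leaving out each library, other scalings, pseudocounts of 5 and 20, other filters and, chosen after seeing the data, equal totals and background subtraction.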

Additional observations from a re-analysis of the deposited data

How the results depend on the processing

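The differences of Hbegf, Pdgfb and Vegfc kept their sign under all settings that gave a value (15, 15 and 14). Nothing is read from these counts, since the groups of these chosen genes did not overlap. Leaving out a library, a pseudocount, a filter or the block could therefore not turn the sign. Only the other scalings and the background subtraction could have done so. Equal library medians gave -0.86, 0.094 and 0.67, and quantile normalisation gave -0.88 for Hbegf and 0.21 for Pdgfb. Equal library totals gave -0.60, 0.36 and 0.94. A pseudocount of 20 gave 0.61 for Vegfc, and subtraction of the mean negative control 1.84. Leaving out 1 library gave -0.68 to -0.44 for Hbegf, 0.32 to 0.42 for Pdgfb and 0.80 to 1.13 for Vegfc. Vegfc has no value under a filter of 20 in all libraries, which it misses. The number of genes called, 1 in the main setting, was 14 with library medians set equal (4 higher and 10 lower) and 0 to 3 when 1 library was left out: 3 without FHKO replicate 2 and 0 without any of the other 5. With the replicate block it was 0. The correlation of deviations of same-numbered libraries was 0.26, -0.03 and -0.29 for numbers 1 to 3, so the numbers were not taken as pairs. The planned edgeR and DESeq2 fits were not run.

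Of 292 values for 20 further named genes, 20 turned sign and 1 passed, Atf3 with library medians set equal. Equal library medians gave -0.0070 for Pdgfa, -0.23 for Tgfa, -0.12 for Adam8, -0.064 for Furin, -0.22 for Angpt2, -0.015 for Mertk, -0.14 for Nos2, -0.050 for Myc and -0.017 for Ier3. Quantile normalisation gave -0.19 for Tgfa, -0.24 for Angpt2 and -0.085 for Nos2. Leaving out 1 library gave -0.023 (without FHKO replicate 2) to 0.16 for Tgfa, -0.39 to 0.024 (without control replicate 3) for Flt1, -0.12 to 0.080 (without FHKO replicate 1) for Plau, -0.089 (without control replicate 2) to 0.33 for Angpt2 and -0.090 (without control replicate 3) to 0.36 for Nos2. Nos2 and Met missed the filter without certain libraries, so their values cover only some omissions. The scaling accounts for the turns under equal library medians by construction, since equal medians lower every difference by 0.29. Counts near the negative controls limit Vegfc, and counting error limits Hbegf.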
